A study of Homo sapiens with 9 samples.

Results

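The miRNAs encoded in the human HOX clusters were followed before and during activation of Jurkat cells (clone E6-1), a line of human leukaemic T lymphoblasts. The 9 mature miRNAs are the annotated arms hsa-miR-10a-5p, miR-10a-3p, miR-10b-5p, miR-10b-3p, miR-196a-5p, miR-196a-3p, miR-196b-5p and miR-196b-3p, and miR-615-3p, chosen by name from 2654 mature names in the table of small RNA counts. They occupy 10 of its 2883 rows, because miR-196a-5p has a row for each of its 2 precursors. Small RNA libraries were made from unactivated cells (0 h) and from cells 5 h and 12 h after activation, with 3 biological replicates per time and 9 libraries in all. Activation used plates coated with antibody to CD3 (10 µg/mL) and antibody to CD28 in the medium (5 µg/mL), while the 0 h cells received neither. All groups are 1 line rather than primary T cells, and no unactivated cells were collected at 5 h or 12 h, so activation and time in culture cannot be told apart.

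HOX genes encode homeodomain transcription factors that give cells their position along the body axis, and they lie in 4 clusters. The miRNA genes of the miR-10 and miR-196 families sit between them and are expressed in similar regional patterns, and miR-196 is known to cut the HOXB8 mRNA in mouse embryos. A miRNA acts mainly through its seed, the bases near its 5′ end that pair with target mRNAs. In blood, miR-196b is known for high levels in leukaemias with MLL rearrangements, and miR-10a for its presence in mouse regulatory T cells.

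The mature sequences, taken from RefSeq on GRCh38.p14, are shown because miR-196a-5p and miR-196b-5p share a seed. The other members with a matched RefSeq entry have different seeds. Capitals mark the seed, bases 2 to 8 counted from the 5′ end. RefSeq entries were matched for 8 of the 9 members. miR-10b-5p is named only, so its seed was not compared with that of miR-10a-5p.
hsa-miR-196a-5p: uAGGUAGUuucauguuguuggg
hsa-miR-196b-5p: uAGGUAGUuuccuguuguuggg
hsa-miR-196a-3p: cGGCAACAagaaacugccugag
hsa-miR-10a-5p: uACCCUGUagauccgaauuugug
hsa-miR-615-3p: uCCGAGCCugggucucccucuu
miR-196a-5p and miR-196b-5p have the same length of 22 bases and the same seed, and differ by 1 base, A12C, counted from the 5′ end of miR-196a-5p. The seed of the miR-196 pair was held at bases 2 to 8 by 2 of 2370 mature sequences searched. Anywhere in the sequence, on the mature strand only, the letters AGGUAGU occurred in 14 (0.591%). In 9 of these they began at base 3, and those were members of the let-7 family together with miR-98-5p and miR-4500. In let-7a-5p, the most abundant miRNA of these libraries, the 7 letters stand 1 base further from the 5′ end, as its capitals show.
hsa-let-7a-5p: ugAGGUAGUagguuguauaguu

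On GRCh38 the genes of these miRNAs lie in all 4 HOX clusters. MIR196A1 (chr17:48632490-48632559, minus strand) lies in an intron of HOXB7, and MIR10A (chr17:48579838-48579947, minus strand) lies in an intron of HOXB3 and in the annotated untranslated part of a HOXB4 transcript. MIR196A2 (chr12:53991738-53991847, plus strand) lies in an intron of HOXC6, 1459 bases past HOXC10 and 3048 bases before HOXC9. MIR615 (chr12:54033950-54034045, plus strand) lies in introns of HOXC4 and HOXC5. MIR196B (chr7:27169480-27169563, minus strand) lies in an exon of a noncoding transcript of HOXA9 and, on the opposite strand, in an exon of HOXA10-AS. MIR10B (chr2:176150303-176150412, plus strand) lies in an intron of HOXD3, 810 bases before HOXD4. A pair of other RefSeq miRNA genes, MIR3185 in HOXB and MIR7704 in HOXD, also lie inside the clusters.

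**Figure D1:**
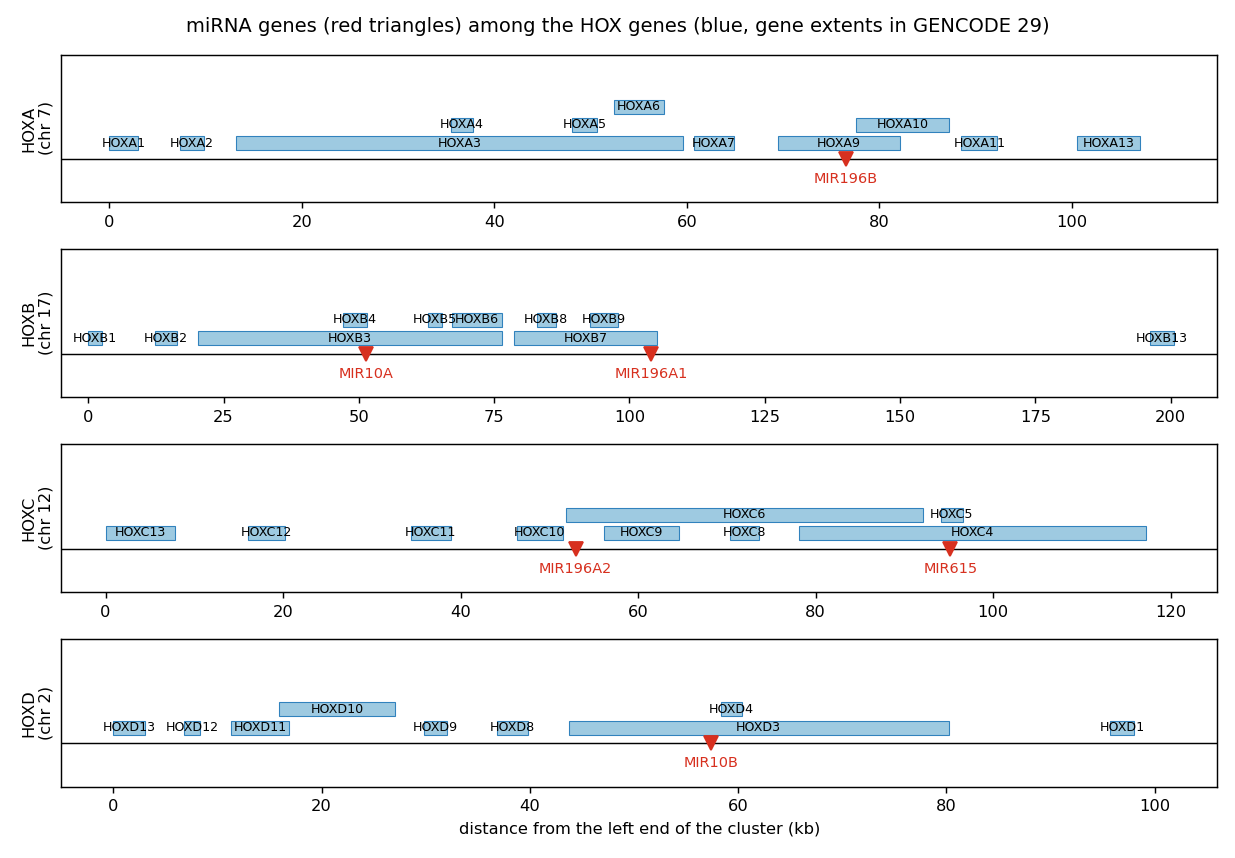
HOX genes (blue boxes, stacked where they overlap) and the 6 miRNA genes of these members (red triangles), drawn to scale as distance in kb from the left end of each cluster, with a separate scale per cluster. HOXB and HOXC each hold 2 of the miRNA genes, and HOXA and HOXD hold 1 each.

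Table totals ranged from 6631839 to 16207031 counts per library. Replicate 3 of 0 h and replicate 3 of 12 h were the shallowest libraries and lay apart from the other 7 in a principal component analysis, so the changes of the tested members are also given without them. Levels are given in CPM, a count relative to the size of its library, after TMM scaling, which corrects for differences in library makeup. A count of 3, taken as the floor for a value of 0, corresponded to 0.176 CPM in the deepest library and 0.471 CPM in the shallowest. The floors, and the Wilson intervals given for shares, cover counting error only. The intervals of log2 changes come from the edgeR fit and also cover the spread between replicate libraries. That fit pools the spread over all tested rows and all 3 times. An interval can thus be wider than the compared libraries of 1 miRNA alone would give. All 5 listed blood miRNAs (miR-142-3p, miR-142-5p, miR-150-5p, miR-155-5p and miR-181a-5p) were present in every library, at 36771 to 53183 CPM in sum, while the 3 listed muscle miRNAs were at 0. Of 4 listed epithelial miRNAs 3 were present, at 147 to 234 CPM in sum, with miR-205-5p at 0. The myeloid miR-223-3p was at 106 to 157 CPM, and of 2 listed neural miRNAs miR-9-5p was at 107 to 199 CPM and miR-124-3p at 0. The liver miRNA miR-122-5p ranged from 0.205 to 66.8 CPM in the 5 h libraries, with the highest value in replicate 3, from 5.96 to 9.03 CPM in those of 12 h and from 0 to 2.13 CPM in those of 0 h. It did not pass at 5 h (edgeR adjusted p = 0.253) or at 12 h (adjusted p = 0.691) against 0 h, and its part in any result below was not tested. Erythroid, endothelial and stromal lists summed to at most 9.71, 18.8 and 21.2 CPM. After activation, miR-132-3p was higher at 5 h than at 0 h by 2.85 on the log2 scale (edgeR adjusted p = 3.19e-12).

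One member dominated. miR-196a-5p averaged 1419 CPM over the 9 libraries and ranked 41st of 1098 mature miRNAs with any count. With each mature miRNA counted once, the summed share of the HOX cluster miRNAs was 0.219% ± 0.00656 in 0 h libraries, 0.231% ± 0.0106 in 5 h libraries and 0.230% ± 0.0152 in 12 h libraries (SD, n = 3). Of that sum, miR-196a-5p made up 97.0% to 98.3% in each library. Next came miR-10a-5p at 19.3 CPM (rank 201), miR-196b-5p at 7.10 CPM (rank 281), miR-615-3p at 3.89 CPM (rank 333), miR-196a-3p at 2.53 CPM (rank 379) and miR-10b-5p at 0.308 CPM (rank 735). These mature sequences are of nearly the same length, so CPM were compared without a length correction. No other correction between sequences was made, so the order is one of counts in the libraries.

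The upper part of this order held in every library and the lower part did not. miR-196a-5p was above miR-10a-5p, and miR-10a-5p above miR-196b-5p, in 9 of 9 libraries, and neither pair overlapped in range. miR-196b-5p was above miR-615-3p in 8 libraries and tied with it in 1, at 142 counts each. miR-615-3p was above miR-196a-3p in 7 of 9. The ranges of these last neighbours overlapped, as did those of miR-196a-3p and miR-10b-5p.

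**Figure D2:**
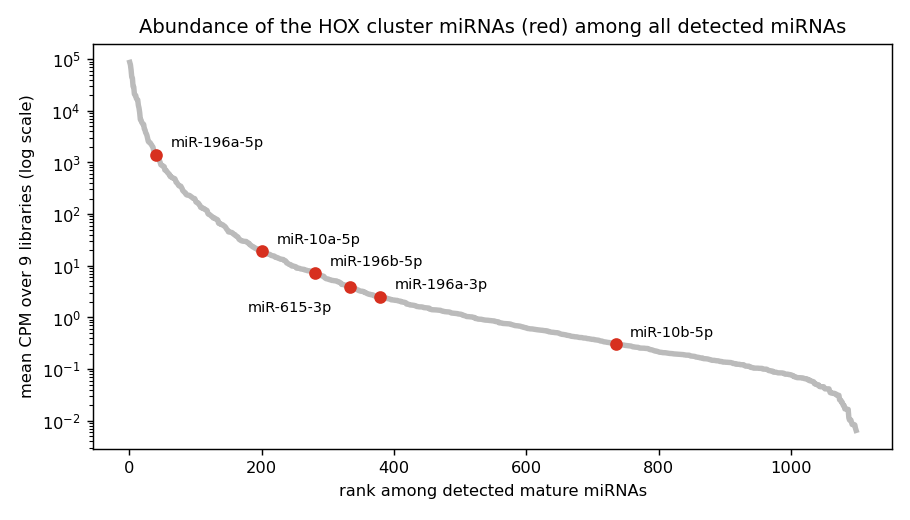
Mean CPM over the 9 libraries (y axis, log scale) of all 1098 detected mature miRNAs against their rank (x axis), with the 6 detected HOX cluster miRNAs in red. miR-196a-5p lies at rank 41 and the next member, miR-10a-5p, at rank 201.

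The remaining 3 members, miR-10a-3p, miR-10b-3p and miR-196b-3p, had 0 counts in all 9 libraries. Over the 103329425 counts of the table this allows a level of up to 0.0290 CPM each. Their opposite arms were present, so every count of miR-10a, miR-10b and miR-196b came from the 5p arm. miR-196a-1-3p, miR-3185 and miR-7704, the other entries inside the clusters, were also at 0 throughout, and the remaining one, miR-615-5p, is described with its opposite arm. The minor arms at 0 are shown with their seeds in capitals, since they are annotated but had no count here.
hsa-miR-10a-3p: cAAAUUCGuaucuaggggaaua
hsa-miR-10b-3p: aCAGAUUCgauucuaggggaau
hsa-miR-196b-3p: uCGACAGCacgacacugccuuc

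No member passed the threshold after activation, a Benjamini-Hochberg adjusted p of 0.05 in edgeR's quasi-likelihood test over all 701 rows tested. Of the 9 members, 5 passed the filter on low counts and were tested. At 5 h against 0 h, 0 of these 5 were called, where 1.57% of all tested rows were. The 12 h libraries against 0 h gave 0 of 5 beside 1.43% of all rows, the 12 h libraries against 5 h gave 0 of 5 beside 0.571%, and any difference among the 3 times gave 0 of 5 beside 1.71%. Beside background shares this low, a count of 0 among 5 is no result about the members. At an unadjusted p under 0.05, edgeR also gave 0 in each of the 4 comparisons. DESeq2 called 0 after adjustment, and limma-voom called 0 after adjustment and had 1 member, miR-196a-3p, under an unadjusted 0.05, at 12 h against 5 h and for any time. The median log2 change of the tested members was 0.029 at 5 h and -0.020 at 12 h against 0 h, beside 0.029 and 0.011 over all tested rows. A median of 5 is the value of 1 member. At 5 h both medians are the same row, that of miR-196a-5p, so their equality is no comparison. In bulk RNA, fewer cells with a miRNA and less of it per cell cannot be told apart.

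miR-196a-5p, the guide arm that carries the miR-196 seed, was the member measured most precisely. It had 1328, 1449 and 1419 CPM in replicates 1, 2 and 3 at 0 h, 1456, 1526 and 1298 CPM at 5 h, and 1467, 1350 and 1479 CPM at 12 h. The 3 groups overlapped throughout. The log2 change was 0.029 at 5 h against 0 h (SE 0.11, 95% interval -0.20 to 0.26, edgeR adjusted p = 0.996) and 0.034 at 12 h against 0 h (SE 0.11, interval -0.20 to 0.27, adjusted p = 0.991). The spread over the 9 libraries was 5.42% of the mean, wider than the 0.822% that counting alone gives. Of 46 mature miRNAs at or above 1000 CPM, 6 had a smaller spread, and the median was 9.25%.

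Without the 2 shallowest libraries the changes of miR-196a-5p were 0.041 at 5 h and 0.011 at 12 h. Its place relative to miR-132-3p did change. miR-132-3p averaged 3192 ± 295 CPM at 5 h and 442 ± 39.9 CPM at 0 h (SD, n = 3), and so lay above miR-196a-5p (1427 ± 117 CPM) at 5 h and below it (1399 ± 63.1 CPM) at 0 h.

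**Figure D3:**
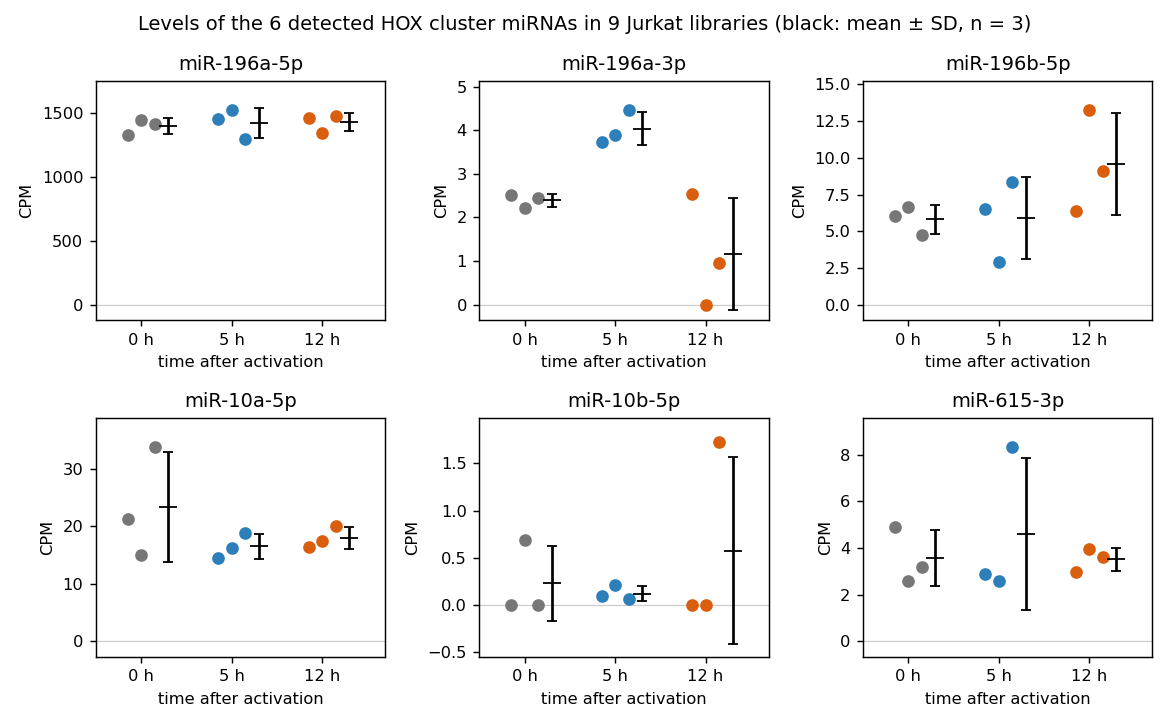
CPM (y axes, a separate linear scale per miRNA) of the 6 detected HOX cluster miRNAs at 0 h, 5 h and 12 h (x axes), with 1 point per library in the order of replicates and the mean ± SD of 3 libraries in black; an SD bar may reach below 0 where libraries are at 0. The groups overlap except for miR-196a-3p, where the 5 h points lie above those of 0 h and 12 h.

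The 2 precursors of miR-196a-5p give the same mature sequence, differ around it, and have different counts on their rows. The RefSeq hairpins are shown with the annotated mature arms in capitals. In both, miR-196a-5p comes first, and it is followed by ccugg in MIR196A1 and by auuga in MIR196A2.
MIR196A1: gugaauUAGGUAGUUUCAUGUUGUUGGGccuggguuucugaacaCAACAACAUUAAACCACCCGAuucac
MIR196A2: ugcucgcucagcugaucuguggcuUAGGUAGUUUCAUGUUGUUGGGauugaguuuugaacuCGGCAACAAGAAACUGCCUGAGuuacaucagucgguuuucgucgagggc
The row of MIR196A2 held 146564 counts over the 9 libraries and the row of MIR196A1 held 110390, or 75.3% as many. The ratio lay between 72.8% and 77.9% in every library, with group means of 76.1% ± 1.61 (0 h), 74.9% ± 0.646 (5 h) and 74.4% ± 1.66 (12 h; SD, n = 3). For comparison, 41 mature miRNAs had several rows and at least 200 counts on the highest of them, and for 27 of these the lowest row was within 5% of the highest (median 99.4%). The ratio was lower than that of miR-196a-5p for 5 of the 41. How reads that match both precursors were assigned is not given in the sources used here, so the rows cannot be read as the output of either gene. The higher row stands for miR-196a-5p throughout. The row of MIR196A1 gave log2 changes of 0.0041 at 5 h (edgeR adjusted p = 0.996) and 0.00042 at 12 h against 0 h (adjusted p = 0.999). The 3p arms differ in sequence between the genes: that of MIR196A2 had 278 counts and that of MIR196A1 had 0. A 3p arm at 0 does not show that its gene gave no 5p arm. miR-10a-3p and miR-196b-3p were also at 0, beside 1940 counts of miR-10a-5p and 752 of miR-196b-5p.

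**Figure D4:**
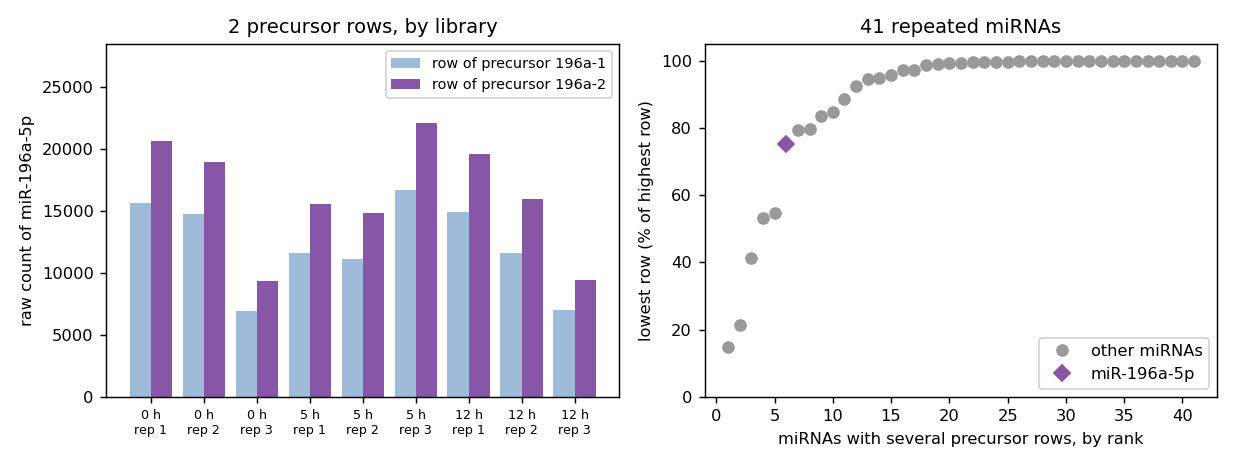
Left, raw counts of miR-196a-5p (y axis) on its 2 precursor rows in each library. Right, for the 41 miRNAs with several rows, the lowest row as a percentage of the highest (y axis), sorted from low to high (x axis); miR-196a-5p (diamond) stands at 75.3%.

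miR-196a-3p, the minor arm of MIR196A2, was the member with separated groups. It had 39, 29 and 16 counts in the 0 h libraries (2.51, 2.22 and 2.44 CPM), 40, 38 and 76 in those of 5 h (3.73, 3.90 and 4.46 CPM) and 34, 0 and 6 in those of 12 h (2.54, 0 and 0.942 CPM). Each library at 5 h lay above each at 0 h and each at 12 h, while 12 h and 0 h overlapped. Groups that do not overlap were found in 1 of the 5 tested members at 5 h against 0 h, where 10.8% of all tested rows have such groups. It was again 1 of 5 at 12 h against 5 h, beside 12.8%, and both results use the same 5 h libraries. The count was 0 of 5 at 12 h against 0 h, beside 12.1%. The log2 change was 0.75 at 5 h against 0 h (SE 1.18, interval -1.72 to 3.22, edgeR adjusted p = 0.996), -1.02 at 12 h against 0 h (SE 1.19, adjusted p = 0.974) and -1.78 at 12 h against 5 h (SE 1.21, adjusted p = 0.977). Without replicate 1 of 12 h the last 2 changes were -2.45 and -3.19, and without replicate 2 of 12 h they were -0.46 and -1.20. limma-voom gave -2.37 and -3.14. Without the 2 shallowest libraries all 3 changes kept their sign, at 0.77, -0.89 and -1.66.

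The 0 in replicate 2 of 12 h comes from a library with 15994 counts of the opposite arm. The 5p arm made up 99.7% ± 0.0502 of both arms at 5 h and 99.8% ± 0.0179 at 0 h, a difference of -0.113 percentage points (n = 3 each, exact two-sided permutation p = 0.1, adjusted 0.6 over 6 tests of shares). With the counts of both precursor rows summed, the difference was -0.066 points. The 5p arm made up 99.9% ± 0.0874 at 12 h, or 0.0921 points above 0 h (exact permutation p = 0.3, adjusted 0.6). With the rows summed it was 0.052 points above 0 h. Reads that match both precursors may stand on both rows. Such a sum may therefore count them more than once, which shrinks the difference, and it is no separate check. With 3 libraries on each side no p below 0.1 is possible in this test.

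miR-196b-5p, which shares its seed with miR-196a-5p and comes from the HOXA cluster, had 6.04, 6.65 and 4.72 CPM at 0 h, 6.53, 2.87 and 8.33 CPM at 5 h, and 6.35, 13.2 and 9.10 CPM at 12 h. The groups overlapped at each comparison, and replicate 2 of 12 h held the highest value. The log2 change was 0.027 at 5 h against 0 h (SE 0.53, interval -1.08 to 1.13, edgeR adjusted p = 0.996). The change was 0.72 at 12 h against 0 h (SE 0.53, interval -0.39 to 1.83, edgeR adjusted p = 0.892). Without replicate 2 of 12 h it was 0.39, and without replicate 3 of 0 h and of 12 h it was 0.61 (edgeR adjusted p = 0.867). The sharing between the pair stayed lopsided: miR-196a-5p made up 99.0% to 99.8% of their sum in every library. That share was 99.6% ± 0.226 in 5 h libraries, 99.3% ± 0.276 in 12 h libraries and 99.6% ± 0.0713 in 0 h libraries. The difference from 0 h was -0.258 points at 12 h (n = 3 each, exact permutation p = 0.3, adjusted 0.6) and -0.010 points at 5 h (exact permutation p = 1). The 12 h difference was -0.107 points without replicate 2 of 12 h. It was -0.152 points with the precursor rows summed, where reads may again be counted more than once. The pair differs at 1 base, and how mismatches were treated in the authors' counting is not given in the sources used here.

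miR-10a-5p, from the HOXB cluster, had 21.3, 14.99 and 33.8 CPM at 0 h, 14.6, 16.2 and 18.8 CPM at 5 h, and 16.4, 17.5 and 20.1 CPM at 12 h. The 5 h and 12 h libraries lay close together, and the 0 h libraries overlapped both, with replicate 3 of 0 h the highest of the 9. The log2 change was -0.49 at 5 h against 0 h (SE 0.33, interval -1.19 to 0.20, edgeR adjusted p = 0.918) and -0.37 at 12 h against 0 h (SE 0.33, interval -1.07 to 0.32, adjusted p = 0.965). Without the 2 shallowest libraries, one of which is that replicate, the changes were -0.13 (adjusted p = 1) and -0.11 (adjusted p = 0.990). The spread over the 9 libraries was 30.5% of the mean, against 7.05% from counting alone.

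miR-10b-5p, the paralog from the HOXD cluster and a miRNA studied for its part in breast cancer spread, was near the floor. Replicates 1, 2 and 3 held 0, 9 and 0 counts in the 0 h group, 1, 2 and 1 in the 5 h group, and 0, 0 and 11 in the 12 h group. A pair of libraries thus held 20 of its 24 counts, and 4 of the 9 held none. It did not pass the filter on low counts. An edgeR fit without the filter gave an adjusted p of 1 for both activated times against 0 h and of 0.995 for 12 h against 5 h.

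miR-10a-5p made up 128 of 139 counts of the miR-10 pair in replicate 3 of 12 h, or 92.1% (95% Wilson interval 86.4% to 95.5%), and 95.6% of 205 counts in replicate 2 of 0 h (91.9% to 97.7%). In the other 7 libraries it was 98.75% or more. The mean share was 99.3% ± 0.477 in 5 h libraries, 97.4% ± 4.57 in 12 h libraries and 98.5% ± 2.53 in 0 h libraries, and neither difference from 0 h passed (n = 3 each, exact permutation p = 1 for both). The difference was -1.17 points at 12 h and turned to 1.46 points without replicate 3 of 12 h. It was 0.731 points at 5 h and turned to -0.733 points without replicate 2 of 0 h. The wider miR-10 family, whose members carry related 5′ ends, was described by 5 relatives, of which 3 were tested. In each comparison edgeR called 0 of these 3, beside 0.571% to 1.71% of all tested rows. Beside shares this low, that count is no result about the relatives. miR-99b-5p (19.9 CPM) and miR-125a-5p (17.3 CPM) had mean levels near that of miR-10a-5p, while miR-100-5p (0.922 CPM) was seen in 3 libraries, miR-125b-5p (0.508 CPM) in 2 and miR-99a-5p (0.145 CPM) in 1.

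miR-615-3p, from the HOXC4 and HOXC5 introns, had 4.89, 2.60 and 3.20 CPM at 0 h, 2.89, 2.57 and 8.33 CPM at 5 h, and 2.99, 3.97 and 3.61 CPM at 12 h. Replicate 3 of 5 h, the deepest library, held 142 of the 439 counts, and the groups overlapped. The log2 change at 5 h against 0 h was 0.37 (SE 0.74, interval -1.18 to 1.92, edgeR adjusted p = 0.996), and without that library it was -0.42. The same library held the highest level of miR-122-5p given above. It also held the highest level of miR-196a-3p (4.46 CPM) and the lowest of miR-196a-5p (1298 CPM). What sets this library apart was not tested. The 12 h change against 0 h was -0.020 (SE 0.74, interval -1.57 to 1.53, edgeR adjusted p = 0.996). Without the 2 shallowest libraries the changes were 0.32 and -0.12.

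The other arm, miR-615-5p, is shown because it made up a larger part of its hairpin's counts than the minor arm of the miR-196a hairpin did, with 116 counts beside 439 of miR-615-3p.
hsa-miR-615-5p: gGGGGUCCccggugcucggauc
Its 0 h libraries held 33, 17 and 6 counts, those of 5 h 0, 0 and 26, and those of 12 h 0, 27 and 7. The 3p arm made up 69.7%, 66.7% and 77.8% of both arms in unactivated cells. The 3 libraries without the 5p arm had 25 to 40 counts of the 3p arm, and there the share of 100% had a lower 95% Wilson limit of 86.7% to 91.2%. In the other 3 activated libraries it was 84.5% (replicate 3 of 5 h), 63.5% (replicate 2 of 12 h) and 76.7% (replicate 3 of 12 h). miR-615-5p did not pass in any comparison (edgeR adjusted p = 0.996 at 5 h and 0.992 at 12 h against 0 h).

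**Figure D5:**
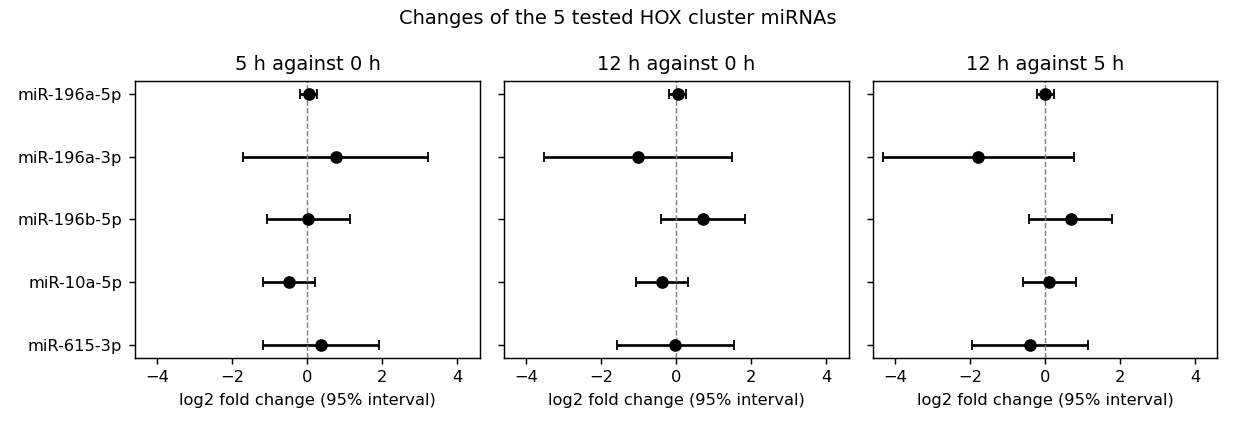
Log2 fold changes (x axes) of the 5 tested HOX cluster miRNAs (rows) in the 3 comparisons, with 95% intervals from the edgeR fit. The interval of miR-196a-5p spans -0.20 to 0.26 at 5 h against 0 h, that of miR-196a-3p -1.72 to 3.22, and all include 0.

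The miRNAs whose levels followed miR-196a-5p most closely over the 9 libraries, among 243 mature miRNAs with a mean of at least 10 CPM, were miR-502-5p, miR-548b-5p and miR-454-3p. Pearson's r of log2 CPM was 0.89 for miR-502-5p (Spearman's rho 0.88), 0.82 for miR-548b-5p (0.68) and 0.76 for miR-454-3p (0.72). All points share their libraries and scaling factors, and these are the 3 highest of 243 values.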

How the data were processed

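Small RNA of 9 Jurkat samples was sequenced after column extraction and RealSeq library preparation, per the labels. The authors deposited raw counts per pair of precursor and mature miRNA; GRCh38.p13 and DESeq2 are named per the submitters' processing notes, while which aligner and counter were run is not given in the sources used here. The authors also deposited log2 normalised values for the 430 rows above 0 in all libraries, which hold 5 of the 10 member rows and were used in 1 alternative. Dividing each count by 1 constant per library, adding 1 and taking log2 gives them to within 5.05e-09.

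Groups came from the sample titles. Rows were filtered with filterByExpr (minimum count 10, minimum total 15; 701 of 1214 rows above 0), scaled by TMM and fitted over all 9 libraries with 1 mean per time by quasi-likelihood (edgeR 4.0.16, R 4.3.3); SE were derived from its tests. Adjusted p are over all 701 rows. Where a mature miRNA has several rows, the one with the highest total was used. Shares were compared by exact two-sided permutation tests (scipy 1.17.1). Positions use GENCODE 29 on GRCh38 and RefSeq on GRCh38.p14, patches that share their chromosome coordinates with the authors' build. Replicates were checked for duplicated libraries, and the lowest chi-square over degrees of freedom was 70.4.

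Named were all 9 members, the other entries inside HOX clusters, 5 relatives of miR-10 and the 3 miRNAs most like the most abundant member, with miR-132-3p as a check and let-7a-5p added after its sequence was seen. Members and lists were chosen with earlier results of these data known. Alternatives were other scalings (library totals, RLE, upper quartile), no filter, a minimum of 10 CPM in 3 libraries, limma-voom (limma 3.58.1), DESeq2 1.42.0, the replicate number as a block, a fit of only 2 groups, 1 row per mature miRNA, the deposited log2 values, and libraries left out.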

Additional observations from a re-analysis of the deposited data

How the results depend on the processing

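No member passed an adjusted p of 0.05 in edgeR or under any of the 21 alternatives, where the lowest was 0.483 (miR-10a-5p at 5 h against 0 h without replicate 2 of 0 h). Its unadjusted edgeR p there was 0.0389. Without replicate 1 of 12 h, 1 member was under an unadjusted 0.05 at 12 h against 5 h. The minimum of 10 CPM left 2 members to test, the deposited log2 values 4 and no filter 6. As above, a count of 0 among so few members is no result about them. Of the members' recomputed log2 changes, 273 kept their sign and 30 changed it. All 30 belong to miR-196a-5p, miR-196b-5p or miR-615-3p.

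At 5 h against 0 h, miR-196b-5p was at -0.0030 with RLE factors, -0.021 with limma-voom, -0.0025 with DESeq2, -0.12 in the deposited log2 table and -0.088 without the 2 shallowest libraries. miR-196a-5p was at -0.00013 with no filter, -0.0040 in the deposited log2 table and -0.041 with a minimum of 10 CPM. At 12 h against 0 h, miR-615-3p was at 0.010 with library totals alone and 0.13 with upper quartile factors. At 12 h against 5 h, miR-196a-5p was at -0.0039 with library totals alone and -0.029 without the 2 shallowest libraries. The cause of these sign changes was not tested.

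Leaving out 1 library at a time gave log2 changes of -0.075 to 0.060 (5 h against 0 h), -0.024 to 0.056 (12 h against 0 h) and -0.071 to 0.085 (12 h against 5 h) for miR-196a-5p. In the 3 comparisons it was -0.35 to 0.30, 0.39 to 0.90 and 0.37 to 1.02 for miR-196b-5p, and 0.64 to 0.82, -2.45 to -0.46 and -3.19 to -1.20 for miR-196a-3p. For miR-10a-5p it was -0.77 to -0.14, -0.66 to -0.0095 and 0.016 to 0.21. For miR-615-3p it was -0.42 to 0.72, -0.24 to 0.27 and -0.65 to 0.35 in the 3 comparisons.

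The count of all rows called at 5 h against 0 h was 17 with no filter and 5 on the deposited log2 values, beside 11 as reported. At 12 h against 0 h it was 6 with only the 2 groups compared and 6 on the deposited log2 values, beside 10 as reported. At 12 h against 5 h it was 12 with no filter, 11 with the replicate block and 3 to 10 without single libraries (10 without replicate 1 of 12 h), beside 4 with all libraries. For any time it was 21 with no filter, 21 with the replicate block, 7 on the deposited log2 values and 7 to 15 without single libraries (7 without replicate 2 of 12 h), beside 12 with all libraries. Same-numbered replicates did not deviate together (correlations -0.030 to 0.060), and in 7 of 18 cases a library correlated best with its own number, so the numbers were not taken as pairs; no member was called with the block.

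The share of miR-10a-5p in the miR-10 pair differed from 0 h by -0.733 to 1.46 points at 5 h and by -2.64 to 1.46 points at 12 h when single libraries were left out, and that of miR-196a-5p in the miR-196 pair by -0.128 to 0.0967 points at 5 h and by -0.378 to -0.107 points at 12 h. miR-10b-5p, miR-196a-3p and both arms of miR-615 had at most 142 counts in a library; the spread of miR-196a-3p was 56.1% of its mean, against 19.5% from counting alone, and that of miR-615-3p 46.8%, against 15.7%.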
